A study of Homo sapiens with 6 samples.

Results

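The transcripts described here come from 10 genes that build microtubules or bind them. They are 4 beta-tubulin isotypes (TUBB, TUBB2A, TUBB3 and TUBB4B), 4 structural microtubule-associated proteins (MAP1B, MAP2, MAP4 and MAP7) and 2 stathmins (STMN1 and STMN3). They were picked by gene name, and all 10 were found among the 18164 genes of the deposited count table. RNA was sequenced from LNCaP, a human prostate cancer line labelled with a WT genotype. In 3 samples the cells were kept for 14 days in 5 µM enzalutamide, a drug for prostate cancer, and 3 control samples received the solvent dimethyl sulfoxide (DMSO). Both groups carried 0.1% DMSO and 10% fetal bovine serum, were seeded at 150000 cells a dish and had medium renewed every 72 h. The controls were collected when they covered 70 to 80% of the dish, so the drug, the time in culture and the density of the cells cannot be told apart. The title of the series concerns neuroendocrine differentiation under therapy, and several of these genes are widely used as markers of neurons.

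Microtubules are hollow polymers of paired alpha- and beta-tubulin, each encoded by several genes whose proteins differ mainly in an acidic tail at the C-terminus. The tails project from the polymer surface, where they are modified by enzymes and touched by motors and microtubule-associated proteins. Structural microtubule-associated proteins bind along the polymer and stabilise it or link it to other structures, while stathmins bind free tubulin dimers and favour disassembly. In dividing cells microtubules form the spindle, and in neurons they form long stable bundles in axons and dendrites.

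The isotypes have similar coding sequences, and their last 60 coding bases, which encode the tail and the stop codon, are shown. They were read from GENCODE v29 transcripts, 5′ to 3′, and capitals mark bases that differ from TUBB in a pairwise alignment of the coding sequences.
TUBB: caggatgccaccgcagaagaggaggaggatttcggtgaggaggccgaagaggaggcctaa
TUBB2A: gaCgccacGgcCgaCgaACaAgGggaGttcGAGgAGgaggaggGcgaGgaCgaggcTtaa
TUBB3: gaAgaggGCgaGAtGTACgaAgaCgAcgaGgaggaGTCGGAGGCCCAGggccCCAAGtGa
TUBB4B: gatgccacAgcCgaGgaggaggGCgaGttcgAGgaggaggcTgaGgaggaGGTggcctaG
TUBB4A: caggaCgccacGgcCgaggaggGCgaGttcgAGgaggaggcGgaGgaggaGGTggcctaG
Over the whole coding sequence the identity to TUBB was 84.7% for TUBB2A, 81.7% for TUBB3, 84.4% for TUBB4B and 83.9% for TUBB4A. Before the tail it was 85.4%, 83.4%, 84.7% and 84.5% in the same order, so bases outside the tail differed as well. In the tail it was 70.0%, 46.7%, 76.7% and 76.7%, so TUBB3 was the most divergent of these 4 in that stretch. Similar sequence limits how reads can be assigned. Of all 100-base windows of the TUBB2A transcript, 56.4% also occurred in a transcript of another gene, most of them in TUBB2B. For TUBB3 the share was 89.0%, all of it shared with the readthrough transcript AC092143.1, and for TUBB it was 20.4%, mostly shared with the antisense transcript AL662797.1. For TUBB4B it was 4.49%, and for the 4 microtubule-associated proteins and both stathmins it was 0. The only row named TUBB in the table lies on the alternate scaffold GL000255.2, so its reads may be a part of all TUBB reads and its level is uncertain wherever it is given.

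Library totals ran from 35578160 to 42540487 counts with DMSO and from 42302153 to 52107644 with enzalutamide. Levels are given as CPM, counts scaled to a common library total, and log2 CPM correlated at 0.987 or more between libraries of the same group and at 0.923 or less across groups. Enzalutamide replicate 1 stood apart from the other two on the second principal component, which held 5.44% of the variance. All 9 luminal prostate markers listed were measured, of which 4 rose, 4 fell and 1 did not pass, while 59.2% of all genes passed. KLK3, FOLH1 and HOXB13 were detected in both groups. FOLH1 rose 1.59-fold and HOXB13 1.32-fold. KLK3, which encodes prostate-specific antigen, fell by 3.73 on the log2 scale, from 2582 to 194 CPM. The summed level of 6 proliferation markers was 1317 to 1335 CPM with DMSO and 98.9 to 102 CPM with enzalutamide. Of 7 fibroblast markers 5 were measured, of which 3 rose, 1 fell and 1 did not pass. Their sum was 13.1 to 13.5 CPM with DMSO, mostly COL1A1, which fell 1.40-fold, and 14.1 to 14.7 CPM with enzalutamide. The rises were COL3A1 (3.44-fold), PDGFRB (2.54-fold) and FAP, which held 2 counts with DMSO and 310 with enzalutamide. Of 5 endothelial markers 3 were measured, with sums of 11.2 to 13.4 and 9.41 to 12.3 CPM; EMCN rose 4.57-fold and VWF fell 1.56-fold. The part of these markers in the results below was not tested. Of 6 leukocyte markers only HLA-DRA was measured, in 2 rows on alternate scaffolds. The row used, on GL000252.2, held 0 CPM with DMSO and 2.02 to 2.60 CPM with enzalutamide. The other row, on GL000253.2, held 0 CPM with DMSO and a mean of 0.571 CPM with enzalutamide. Of 10 markers of neurons and glia 3 were measured, of which 0 rose, 2 fell and 1 did not pass. Their sum was 129 to 130 CPM with DMSO and 101 to 115 CPM with enzalutamide, most of it from MBP. MBP fell by 0.26 on the log2 scale. The neurofilament gene NEFH fell 8.12-fold, from 53 counts in all with DMSO to 8 with enzalutamide. NEFL, with a log2 change of 0.11, did not pass.

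Of the 10 genes, 4 rose with enzalutamide (MAP1B, MAP4, STMN3 and TUBB2A), 4 fell (MAP2, STMN1, TUBB and TUBB4B) and 2 did not pass the test (MAP7 and TUBB3), by edgeR's quasi-likelihood test at an adjusted p under 0.05. Of all 18164 genes tested, 59.2% passed the same threshold, 30.0% higher and 29.2% lower. The share of the 10 that passed is therefore read against a background in which most genes changed. The ranges of the groups did not overlap for 8 of the 10, against 66.4% of all genes. The log2 change was 1 or more in size for 5 of the 10, against 27.3% of all genes, and their median change of 0.077 lay near the median of all genes, -0.0037. Isotypes and relatives within each of the 3 kinds of protein went opposite ways. Where a level is lower in such bulk RNA, fewer cells of a type and less RNA per cell cannot be told apart.

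**Figure D1:**
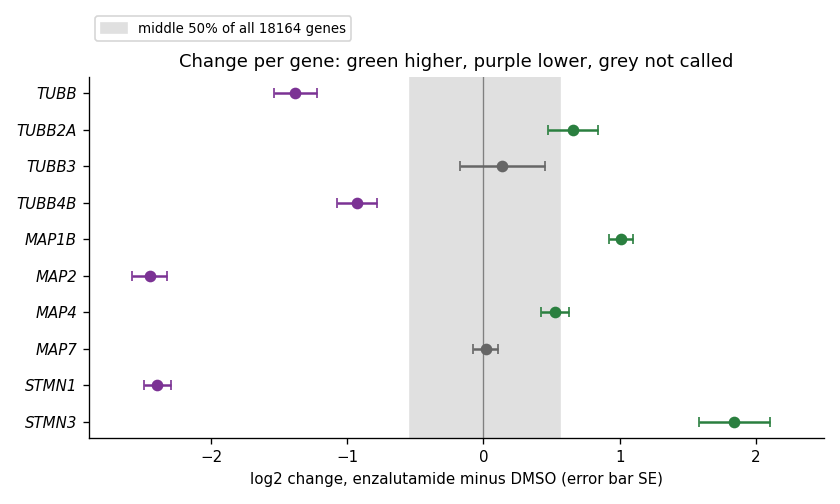
Log2 change, enzalutamide minus DMSO (horizontal axis), for each of the 10 genes (vertical axis); points are edgeR estimates, error bars are the SE, and the grey band holds the middle 50% of all 18164 genes. MAP2 (-2.45) and STMN1 (-2.39) lie farthest to the left, STMN3 (1.84) farthest to the right, and MAP7 (0.017) and TUBB3 (0.14) lie inside the band, as does MAP4 (0.53), which passed the test.

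TUBB4B (chr9:137241287-137243707, hg38, plus strand) encodes a beta-tubulin found in most tissues and needed in cilia. Its row had the highest level per length of the 4 isotype rows, with the limit that the TUBB row may hold a part of the TUBB reads. Its levels were 312, 342 and 320 CPM with DMSO and 216, 147 and 148 CPM with enzalutamide. The groups did not overlap, and enzalutamide replicate 1 was the highest of its group. TUBB4B fell 1.90-fold, a log2 change of -0.93 ± 0.14 (SE) with an adjusted p of 0.000332. TUBB, the isotype most often named as the main beta-tubulin of dividing cells, had 18.3, 21.6 and 17.1 CPM with DMSO and 8.82, 6.73 and 6.27 CPM with enzalutamide on its scaffold row. All 3 treated libraries were below all controls. It fell 2.61-fold (log2 change -1.38 ± 0.16, adjusted p 4.1e-05).

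TUBB2A (chr6:3153666-3157544, minus strand), a beta-tubulin abundant in brain, had 6.27, 6.80 and 6.39 CPM with DMSO and 13.4, 9.24 and 8.03 CPM with enzalutamide. The groups did not overlap, but the treated libraries differed among themselves, with replicate 1 well above the others. It rose 1.58-fold (log2 change 0.66 ± 0.18, adjusted p 0.0109). Without enzalutamide replicate 1 its log2 change was 0.43 and its adjusted p 0.000691. That was the smallest change among the alternatives, over which the adjusted p ran from 0.000691 to 0.0436. Reads shared with TUBB2B, which is not analysed here, leave its level uncertain. TUBB3 (chr16:89921392-89938761, plus strand) encodes the beta-tubulin used as a standard marker of neurons. It held 13, 30 and 18 counts with DMSO and 37, 32 and 18 counts with enzalutamide, which is 0.526 and 0.579 CPM on average. The groups overlapped throughout, and the log2 change of 0.14 ± 0.31 did not pass the test (adjusted p 0.726). As 89.0% of its 100-base windows are shared with AC092143.1, these counts may be a part of all TUBB3 reads. Its level and its change are uncertain to that extent.

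**Figure D2:**
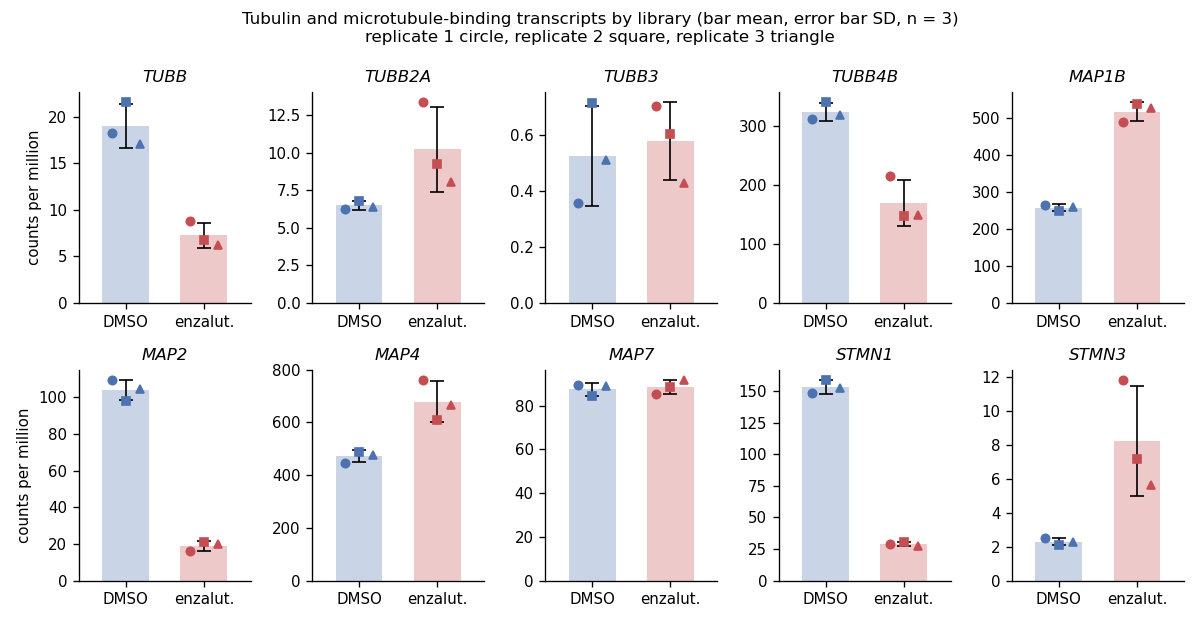
Level in CPM in each library (vertical axes from 0, each gene on its own scale) for DMSO and enzalutamide; bars are means, error bars SD, n = 3, and symbols mark the replicates. MAP2 and STMN1 fall from about 98.1 or more to 30.8 or less in every library, MAP1B rises from at most 266 to at least 488, and enzalutamide replicate 1 is the highest treated library for TUBB2A, TUBB4B and STMN3.

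The composition of the beta-tubulin pool differed between the groups. Shares were taken of counts per kilobase over 6 measured isotypes, the 4 above with TUBB4A and TUBB6. TUBB4B held 93.3, 93.1 and 93.6% of the pool with DMSO and 85.6, 85.8 and 86.3% with enzalutamide. TUBB2A held 2.18, 2.16 and 2.18% with DMSO and 6.19, 6.27 and 5.44% with enzalutamide. TUBB4A, another isotype abundant in brain, went from a mean of 0.961% to 5.33%, and TUBB6 from 0.129% to 0.438%. TUBB on its scaffold row went from 3.31% to 2.24%, and TUBB3 from 0.069% to 0.135%. No isotype's share overlapped between the groups, though the CPM of TUBB3 overlapped and did not pass the test. TUBB enters the pool through its scaffold row alone, TUBB2B is not analysed here, and TUBB3 shares most of its windows with AC092143.1. Every share is off by an unknown amount if reads of these genes lie elsewhere. Without division by length the changes kept their direction but were over 1.5 times larger for TUBB4A (6.60 points against 4.37), TUBB (-1.78 against -1.07), TUBB3 (0.135 against 0.066) and TUBB6 (0.594 against 0.308). The shares of the 3 treated libraries lay close together, also for replicate 1, whose CPM of TUBB2A and TUBB4B stood apart. With 3 libraries against 3, the two-sided exact permutation test gave p = 0.10 for each of the 6 shares (0.10 after Benjamini-Hochberg adjustment), the smallest p this design allows. Left out of the sum, TUBB moved the change of TUBB4B from -7.47 to -8.69 percentage points, an alternative chosen after seeing the data.

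**Figure D3:**
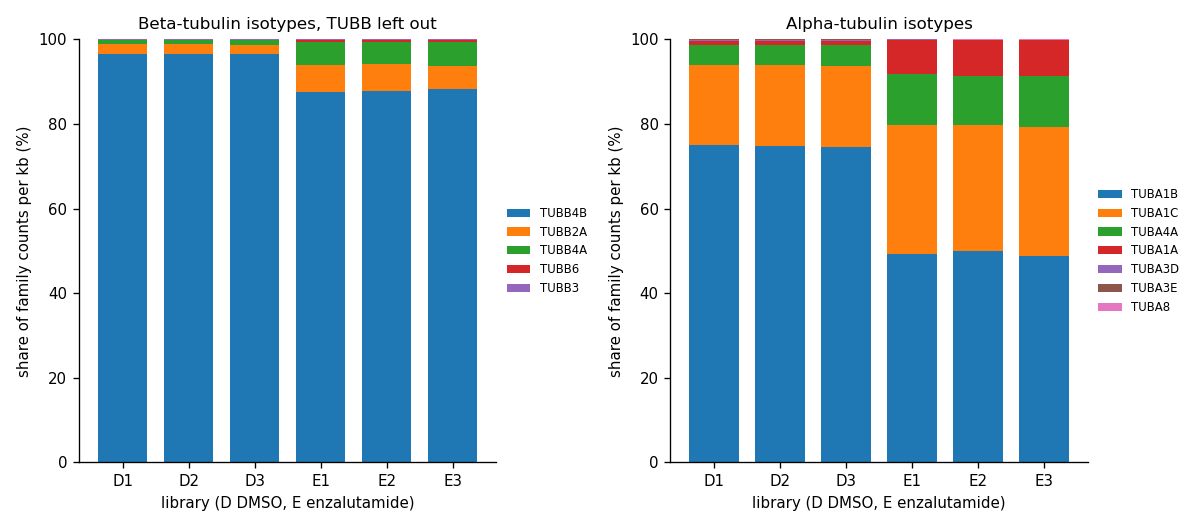
Share of each isotype in the family's counts per kilobase (vertical axis, %) in each library, D for DMSO and E for enzalutamide, for beta-tubulins without TUBB (left) and alpha-tubulins (right). TUBB4B fills 96.5 to 96.6% of the DMSO bars and 87.5 to 88.2% of the enzalutamide bars, and TUBA1B fills 74.8% and 49.3% on average.

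The beta-tubulins outside the 10 both rose. TUBB4A had 5.25, 5.32 and 5.23 CPM with DMSO and 21.9, 13.4 and 15.0 CPM with enzalutamide, with no overlap, and rose 3.19-fold (adjusted p 3.0e-05). TUBB6 rose 1.92-fold from 0.906 CPM (adjusted p 0.00256). Summed over the 5 isotypes other than TUBB, the beta-tubulin level per length was 165 ± 7.73 RPKM (CPM per kilobase, SD) with DMSO and 95.3 ± 22.2 with enzalutamide, 1.73-fold lower with no overlap between groups. The alpha-tubulins, the partners in each dimer, showed the same kind of shift. Their summed level was 386 ± 19.9 RPKM with DMSO and 131 ± 32.5 RPKM with enzalutamide, 2.96-fold lower.

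Of 7 alpha-tubulin genes measured out of 9 listed, 1 rose and 4 fell, and 2 did not pass the test, while 59.2% of all genes passed. Their median log2 change was -0.90, the value of TUBA1C. The low-count genes TUBA3D and TUBA3E lie far below it, so setting them at their ratio or bound could not move it. TUBA1B, the main alpha-tubulin of these cells, had 995, 1093 and 1010 CPM with DMSO and 295, 209 and 187 CPM with enzalutamide, and fell 4.49-fold (adjusted p 1.6e-06). TUBA1C fell 1.87-fold. TUBA1A, the isotype most abundant in developing brain, had 9.96, 10.4 and 10.6 CPM with DMSO and 44.0, 31.5 and 29.4 CPM with enzalutamide, and rose 3.39-fold (adjusted p 8.2e-06). TUBA3D, a testis isotype, held 242 counts in all with DMSO and 2 with enzalutamide, which was 157-fold lower with an exact 95% counting interval of 42.9 to 1301. TUBA3E held 62 counts with DMSO and 0 with enzalutamide, at least 8.63-fold lower against a floor of 3 counts per library. In the alpha pool TUBA1B went from 74.8% to 49.3%, TUBA1C from 19.1% to 30.2%, TUBA4A from 4.86% to 11.9% and TUBA1A from 0.842% to 8.46%. TUBA4A itself did not pass the test on CPM. Shared windows were counted for the 10 genes alone, so the assignment of alpha-tubulin reads is uncertain too. TUBA3D lies within MZT2A and TUBA1A overlaps the start of TUBA1C, each on the opposite strand. Whether reads were counted by strand is not given in the labels.

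Promoter sequence is shown for TUBB4B and TUBB2A, isotypes with similar coding sequence that went opposite ways, and for STMN1, which fell the most with MAP2. The windows run from 250 bases before to 50 bases after a RefSeq start on GRCh38.p14, 5′ to 3′ on the gene's strand. Capitals mark the letters of 5 motifs searched on both strands. They are CCAAT, the CHR element of cell cycle genes (TTTGAA or TTTAAA) and an E2F motif (TTTGGCGC or TTTCGCGC). The others are TATAAA and the cyclic AMP response element (TGACGTCA). The GC box (GGGCGG) was searched as well and is left unmarked.
TUBB4B, chr9:137241037-137241336, plus strand: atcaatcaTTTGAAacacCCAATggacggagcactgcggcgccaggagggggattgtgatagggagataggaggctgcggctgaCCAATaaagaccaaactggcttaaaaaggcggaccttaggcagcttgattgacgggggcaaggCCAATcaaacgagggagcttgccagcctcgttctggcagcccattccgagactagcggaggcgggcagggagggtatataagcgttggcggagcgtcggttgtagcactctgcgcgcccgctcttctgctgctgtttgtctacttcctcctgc
TUBB2A, chr6:3157495-3157794, minus strand: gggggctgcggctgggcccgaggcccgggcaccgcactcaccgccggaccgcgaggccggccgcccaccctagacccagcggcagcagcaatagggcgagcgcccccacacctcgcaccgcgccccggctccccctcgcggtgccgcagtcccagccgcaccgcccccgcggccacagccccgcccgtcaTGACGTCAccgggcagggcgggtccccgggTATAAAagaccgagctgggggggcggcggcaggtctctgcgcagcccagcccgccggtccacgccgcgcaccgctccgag
STMN1, chr1:25906370-25906669, minus strand: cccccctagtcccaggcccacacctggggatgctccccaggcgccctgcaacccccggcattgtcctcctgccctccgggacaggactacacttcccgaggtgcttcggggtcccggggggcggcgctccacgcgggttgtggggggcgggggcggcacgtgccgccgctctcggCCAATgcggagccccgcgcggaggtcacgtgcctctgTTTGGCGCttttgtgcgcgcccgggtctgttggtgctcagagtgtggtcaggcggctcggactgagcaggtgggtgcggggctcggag
The TUBB4B window held 3 CCAAT boxes and 1 CHR element. The TUBB2A window held neither, but held 1 TATAAA and 1 cyclic AMP response element. The STMN1 window held 1 CCAAT box and 1 E2F motif, while the windows of the other starts that RefSeq lists for this gene, not shown, held 0 of the 5 motifs. Of 35116 promoter windows of the same length, 34.6% held a CCAAT box, 24.0% a CHR element, 1.15% the E2F motif, 11.5% TATAAA and 1.85% the cyclic AMP response element. Windows not shown of genes that rose held such motifs too. MAP4 had 2 CCAAT boxes at 1 start and 3 CHR elements at another, and MAP1B had 2 CHR elements at 1 start. STMN3, which also rose, had 0 of either. Of the genes that fell, MAP2 had 1 CHR element at 1 start and 1 CCAAT box at another, and TUBB had 1 CCAAT box at 1 start. These matches describe the letters only.

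MAP1B and MAP2 are large microtubule-associated proteins of neurons, MAP1B in growing axons and MAP2 in dendrites, and they went opposite ways. MAP1B (chr5:72107234-72209565, hg38, plus strand) had 266, 247 and 258 CPM with DMSO and 488, 538 and 527 CPM with enzalutamide. Every treated library was above every control, with little spread in either group. It rose 2.01-fold (log2 change 1.01 ± 0.09, adjusted p 4.3e-06). MAP2 (chr2:209424058-209734118, plus strand) had 109, 98.1 and 105 CPM with DMSO and 15.9, 20.9 and 20.2 CPM with enzalutamide. Every treated library was far below every control. It fell 5.47-fold (log2 change -2.45 ± 0.13, adjusted p 1.3e-07), the largest change among the 10.

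MAP4 (chr3:47850690-48089272, minus strand), the main microtubule-associated protein of non-neuronal cells, had 447, 490 and 478 CPM with DMSO and 763, 608 and 667 CPM with enzalutamide. The groups did not overlap, and enzalutamide replicate 1 was again the highest. It rose 1.44-fold (log2 change 0.53 ± 0.10, adjusted p 0.00134). MAP7 (chr6:136342281-136550819, minus strand), also called ensconsin, recruits kinesin-1 to microtubules in epithelial cells. It had 89.4, 84.1 and 89.1 CPM with DMSO and 85.3, 88.7 and 91.8 CPM with enzalutamide. The groups overlapped, and the log2 change of 0.017 ± 0.090 did not pass the test (adjusted p 0.882). Within libraries the log2 ratio of MAP2 to MAP4 differed by -2.98 between groups, that of MAP1B to MAP4 by 0.49 and that of MAP7 to MAP4 by -0.50. In each of these 3 ratios the groups did not overlap. Over the 7 ratios computed, including those below, the exact permutation test gave p = 0.10 for each, which is the smallest it can give.

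STMN1 (chr1:25884181-25906991, minus strand) encodes stathmin, which binds free tubulin dimers and is abundant in many dividing cells. It had 148, 159 and 153 CPM with DMSO and 29.3, 30.8 and 27.5 CPM with enzalutamide. The treated libraries were all far below the controls and close to each other. It fell 5.26-fold (log2 change -2.39 ± 0.10, adjusted p 1.8e-08, the smallest of the 10). The proliferation markers given above fell beside STMN1, TUBB, TUBB4B and MAP2, and their part in these changes was not tested. STMN3 (chr20:63639705-63657682, minus strand), a neuronal relative of stathmin also known as SCLIP, had 2.49, 2.11 and 2.29 CPM with DMSO and 11.8, 7.18 and 5.63 CPM with enzalutamide. All treated libraries were above all controls, with a coefficient of variation of 39.3% among them, the highest of the 10. It rose 3.59-fold (log2 change 1.84 ± 0.26, adjusted p 0.000166), and without enzalutamide replicate 1 its log2 change was 1.5. The log2 ratio of STMN3 to STMN1 went from -5.02 ± 0.17 with DMSO to -0.85 ± 0.52 with enzalutamide (SD), a difference of 4.17 without overlap. Among isotype pairs the log2 ratio to TUBB differed by 2.02 for TUBB2A, 1.56 for TUBB3 and 0.44 for TUBB4B, all resting on the scaffold row of TUBB.

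In the authors' deposited table the false discovery rate was 0.00188 for TUBB2A, 0.90 for MAP7 and 0.73 for TUBB3. Antisense genes overlap MAP1B (AC025774.1), MAP7 (AL024508.2), TUBB3 (AC092143.2) and TUBB4B (FAM166A). The labels do not say whether reads were counted by strand, so these overlaps leave the levels uncertain to that extent. The mean count of AL024508.2 was 392 per library and that of the other overlapping genes 12 or less.

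Per length, the order of the levels also differed. With DMSO it ran from TUBB4B at 159 RPKM through MAP4 (31.5), STMN1 (24.6), MAP1B (20.5), MAP7 (16.1), MAP2 (9.0), TUBB (5.65), TUBB2A (3.71) and STMN3 (0.759) to TUBB3 (0.119), and no neighbours in that order overlapped. With enzalutamide TUBB4B was still first at 83.7 RPKM, followed by MAP4 at 45.5 and MAP1B at 41.3 RPKM, whose ranges overlapped. MAP7 came next at 16.3 RPKM. TUBB2A at 5.85 RPKM overlapped STMN1 at 4.67, and STMN3 at 2.71 RPKM overlapped TUBB at 2.16. MAP2 stood at 1.65 and TUBB3 at 0.131 RPKM. STMN1 and MAP2 thus lost ranks, and TUBB2A and STMN3, both low in the controls, came to lie among them.

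**Figure D4:**
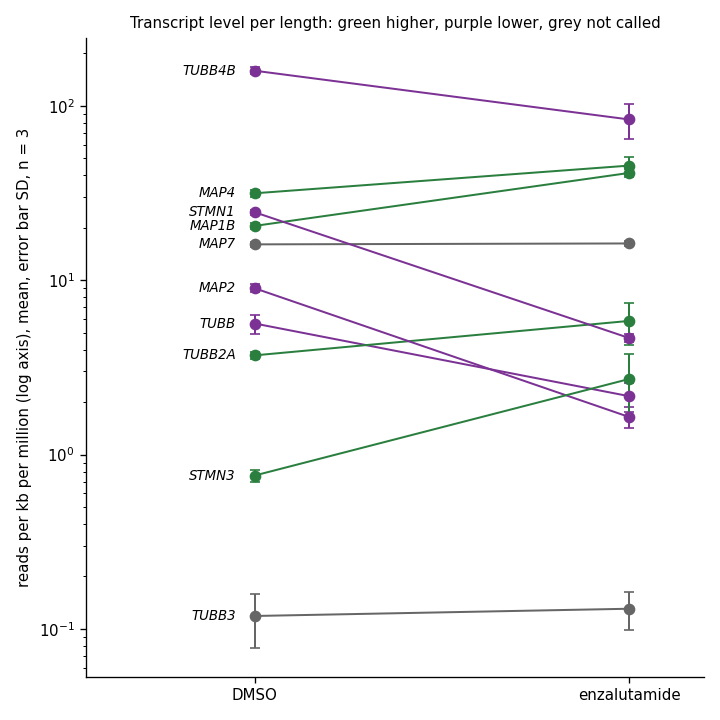
Level per length (vertical log axis, RPKM, CPM per kilobase) of each gene with DMSO and with enzalutamide; points are means, error bars SD, n = 3, with green for higher, purple for lower and grey for not called. The line of STMN1 (24.6 to 4.67) crosses that of TUBB2A (3.71 to 5.85), and the line of MAP2 (9.0 to 1.65) crosses those of TUBB2A and STMN3 (0.759 to 2.71).

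The spread between treated libraries was not alike for all genes. Enzalutamide replicate 1 was the highest treated library for 6 of the 10, against 43.6% of all genes. The profile of each gene over the 6 libraries was compared with 136 other microtubule genes by the root mean square distance of log2 CPM, each centred on its mean. TUBB4B was most like TUBA1C (0.037), MAP4 was most like TACC2 (0.035), MAP7 most like TTL (0.068) and TUBB most like TUBG1 (0.081). MAP1B was nearest to TTLL3 (0.081), TUBB2A to NUMA1 (0.119), STMN3 to TUBA1A (0.165) and TUBB3 to TTLL11 (0.226). MAP2 and STMN1 were nearest to each other (0.153). These distances are descriptions over 6 libraries that fall into 2 groups.

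Of 21 measured lattice-binding proteins outside the 10 (29 listed), 7 rose, 6 fell and 8 did not pass. Their median log2 change was -0.049. Counts here and in the lists below stand beside the 59.2% of all genes that passed. MAP1A, the partner of MAP1B in the same family, fell 4.08-fold from 7.25 to 1.77 CPM (adjusted p 1.1e-05), opposite to MAP1B. TPPP, which bundles microtubules in oligodendrocytes, rose 3.41-fold from 10.3 to 35.3 CPM. MAPT, which encodes tau, rose by 1.86 on the log2 scale in its chromosome row at under 1 CPM. MAP9 and EML1 fell 2.43-fold and 2.42-fold. Of the relatives of MAP7, MAP7D3 fell 1.89-fold, and MAP7D1 (-0.099) and MAP7D2 (-0.049) did not pass. Without enzalutamide replicate 1 MAP7D1 passed with a log2 change of -0.29 (adjusted p 0.000143, with 0.9998 as the highest among the alternatives). Of 8 measured stathmins and severing enzymes (11 listed), 1 rose, 5 fell and 2 did not pass (median -0.47), and the count that fell was 3 without DMSO replicate 1 or without DMSO replicate 3. KATNAL2 rose 3.25-fold from 0.978 CPM, and FIGNL1 fell 1.64-fold. STMN4 had a log2 change of -0.58 and did not pass (adjusted p 0.144). Leaving out enzalutamide replicate 1 brought it past the threshold at -0.95, and its adjusted p ran from 0.0215 to 0.329 over the alternatives. STMN2 is not analysed here.

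Of 15 spindle-associated proteins, 13 fell and 2 rose, with a median log2 change of -4.03. Among all genes 29.2% fell and 30.0% rose. ASPM, which organises spindle poles, fell 69.7-fold from 50.9 to 0.731 CPM, and HMMR, DLGAP5 and GTSE1 fell 66.8-fold, 62.0-fold and 42.2-fold. These changes were larger than those of any of the 10 genes. The 2 that rose were NUMA1 and TACC2. Of 14 genes for gamma-, delta- and epsilon-tubulin and the nucleating ring complex, 11 fell, 1 rose and 2 did not pass (median -0.71). TUBG1, the main gamma-tubulin, fell 2.65-fold and TUBG2 rose 2.09-fold from 13.4 to 28.0 CPM. MZT1 and NEDD1, which tether the ring complex, fell 2.66-fold and 2.25-fold.

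Of 21 measured genes for tubulin folding and autoregulation (22 listed), 12 fell, 3 rose and 6 did not pass (median -0.56). Among all genes 29.2% fell and 30.0% rose. In this list the count that rose was 1 without DMSO replicate 1, 2 or 3. TCP1, CCT6A and CCT5, subunits of the chaperonin that folds tubulin and actin, fell 2.46-fold, 2.32-fold and 1.85-fold, and PFDN2 of the prefoldin complex fell 1.96-fold. TTC5, which recognises nascent tubulin and triggers decay of its mRNA, fell 1.61-fold from 39.3 to 24.3 CPM (adjusted p 0.000206), a gene chosen after its values were seen. Of 17 measured tubulin-modifying enzymes (24 listed), 7 rose, 5 fell and 5 did not pass (median 0.15). The count that rose was 4 without DMSO replicate 2, without DMSO replicate 3 or without enzalutamide replicate 2. The vasohibins remove the last residue of alpha-tubulin, and VASH1 rose 2.04-fold from 1.46 CPM while VASH2 fell 5.89-fold from 21.8 CPM. TTLL3, a glycylating enzyme, rose 1.87-fold, and TTLL4, a glutamylating enzyme, fell 2.31-fold.

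Of 18 end-binding and minus-end proteins, 6 rose, 5 fell and 7 did not pass (median 0.12), a share passing that is near the 59.2% of all genes. MAPRE2, an end-binding protein, rose 2.39-fold from 13.5 to 32.3 CPM, CLIP2 and CLIP3 rose 2.5-fold and 2.17-fold, and SLAIN1 fell 2.74-fold from 45.5 to 16.7 CPM. Of the 4 MARK kinases, which phosphorylate microtubule-associated proteins and release them from the polymer, MARK1 and MARK4 rose 1.66-fold and 1.42-fold and 2 did not pass. The count that rose was 1 without DMSO replicate 3 and 4 without enzalutamide replicate 1, and MARK4 missed the threshold in the former (adjusted p 0.0594, with 0.000495 as the lowest among the alternatives). Of all genes, the median change lay at -0.0037 under the main scaling and at 0.12 under upper quartile scaling, and none of the 8 called genes among the 10 turned direction under either.

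**Figure D5:**
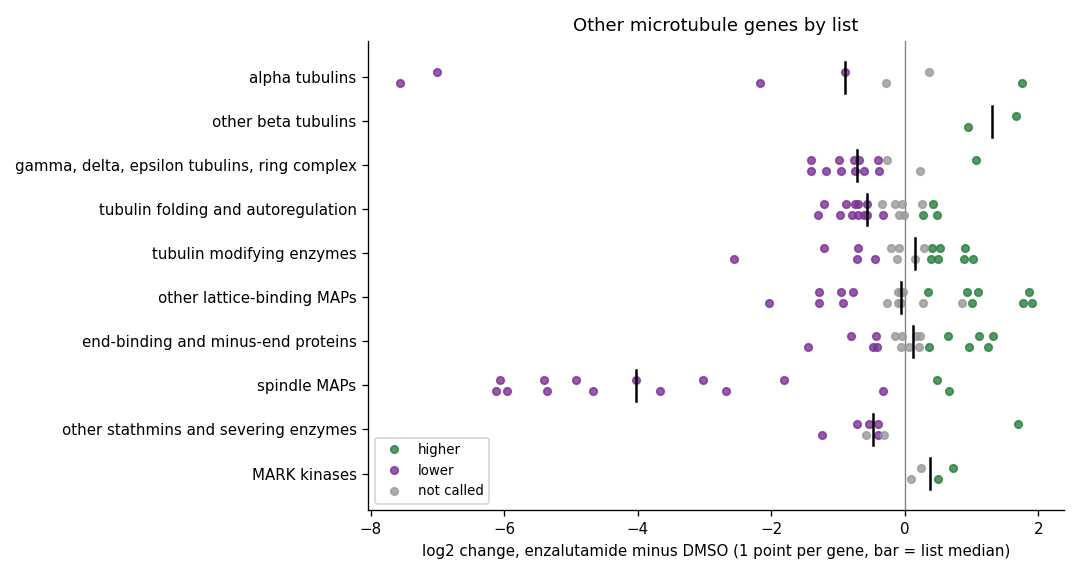
Log2 change, enzalutamide minus DMSO (horizontal axis), of other microtubule genes by list (vertical axis); each point is 1 gene, green higher, purple lower and grey not called by edgeR, and the black bar is the list's median. Spindle proteins reach -6.12 with a median of -4.03, most ring complex and folding genes lie below 0, and the far left points of the alpha-tubulins are TUBA3D and TUBA3E, whose fitted values rest on 2 and 0 counts with enzalutamide.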

How the data were processed

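Poly(A) mRNA libraries from 6 LNCaP samples were made from 100 ng of total RNA with an integrity number of 10 and read as pairs of 100 bases, per the labels' protocols. Sample titles gave the groups and replicate numbers. The labels do not say whether replicates were separate cultures, and the p-values then measure only the spread between samples that may be technical repeats. The submitters' processing notes name bcl2fastq, STAR 2.5, featureCounts, Subread 1.6.5, edgeR 3.20.8 and the hg38 genome. The deposited table holds read counts per gene and library as whole numbers, per the file headers. It also holds the authors' log2 CPM, log2 RPKM and log2 fold change, and the authors' deposited p-values and false discovery rates, used here only where named. In each of the 18164 genes the third highest count was at least 9, so genes below that are not analysed here. Of the deposited rows, 255 share a symbol with another row, and 236 lie on alternate scaffolds.

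The test was edgeR 4.0.16 in R 4.3.3 on the deposited counts (TMM scaling, robust quasi-likelihood F test on group). Benjamini-Hochberg adjustment ran over all 18164 genes, and an adjusted p under 0.05 counted as passing. The filterByExpr filter removed 0 genes. CPM uses TMM-scaled totals, RPKM divides it by the deposited gene length, and an SE is the size of the change divided by the root of its F value. Shares and ratios were tested by exact two-sided permutation with scipy 1.17.1. Alternatives were other scalings, DESeq2 1.42.0, limma-voom 3.58.1, a filter of 1 CPM in 3 libraries, no filter, leaving out each library, a replicate block, and summing genes of the same symbol. Simulated counts covered 17192 genes, with levels from the DMSO libraries and the same replicate spread for every gene. Of these, 77 were changed 1.5-fold, 59 were changed 2-fold and 64 were changed 4-fold. Recovery was 36.4%, 89.8% and 98.4% in that order, and 8.86% of calls were false. In the data 59.2% of genes passed and the spread differs by gene, so these rates need not hold there.

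The 10 genes and the lists of other microtubule genes and cell type markers were chosen with earlier results of these data known. All 10 genes are named, with their nearest relatives, the up to 4 largest changes among passing genes of each list that reached 1 CPM in either group mean, and the gene most like each. Some genes that this rule would name are not reported here. Floors and intervals cover counting error only. Coding sequences are from GENCODE v29 and promoters from RefSeq, which held a window for each of the 10 genes.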

Additional observations from a re-analysis of the deposited data

How the results depend on the processing

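The 4 rises and 4 falls kept their direction and passed the threshold under every scaling, tool, filter and left-out library that was run. The 1 CPM filter dropped TUBB3, and the alternative with no filter gave the same values because 0 genes had been removed. TUBB3 and MAP7, which did not pass, turned sign when a library was left out: TUBB3 was -0.075 without DMSO replicate 1 and -0.012 without enzalutamide replicate 1, within a range of -0.075 to 0.43. MAP7 was -0.011 without DMSO replicate 2 and -0.0088 without enzalutamide replicate 3, within a range of -0.011 to 0.058. Upper quartile scaling turned MAP7D1 to 0.026 and MAP7D2 to 0.076. With a library left out, MAP7D1 ranged from -0.29 to 5.4e-05 and MAP7D2 from -0.33 to 0.31. Upper quartile scaling, which moved the median of all genes to 0.12, took the lower stathmins and severing enzymes from 5 to 3 and the higher ring complex genes from 1 to 2. The cause was not tested.

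Without division by gene length the changes in beta-tubulin share were -1.78 percentage points for TUBB, 3.09 for TUBB2A, 0.135 for TUBB3, 6.60 for TUBB4A, -8.64 for TUBB4B and 0.594 for TUBB6. Without TUBB in the sum the share of TUBB4B changed by -8.69 points. Both follow from how the sum is built. Deviations of same-numbered libraries from their group means correlated at -0.27, -0.37 and 0.15 over 13952 genes. Deviations from a mean of 3 libraries depend on each other, so these values cannot decide whether the numbers pair the samples. The labels do not say whether they do. With the replicate block 4 of the genes rose and 4 fell, and 10174 genes passed in all, against 10754 without it. TUBB3 rests on 13 to 37 counts a library, and how depth limits single genes was not tested.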

Other observations

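MAPT, which encodes tau, appears in the deposited table under 2 rows, and they were counted apart by the authors. The chromosome 17 row held 6, 4 and 7 counts with DMSO and 30, 26 and 25 with enzalutamide. The row on alternate scaffold GL000258.2 held 80, 106 and 87 counts with DMSO and 559, 454 and 395 with enzalutamide. Both rows rose by edgeR's quasi-likelihood test, with log2 changes of 1.86 and 1.99, and the summed counts gave 1.99. The chromosome row alone, which the list of lattice-binding proteins uses, therefore holds a small part of the MAPT counts.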
